A study of Mus musculus with 4 samples.

Results

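The genes described here are 10 genes of the integrated stress response (Atf4, Ddit3, Trib3, Ddit4, Sesn2, Chac1, Asns, Psat1, Phgdh and Shmt2), chosen by name from the 12486 genes of the count table. Each name matched 1 row of the table. Transcription was measured by PRO-seq, a nuclear run-on assay that maps the 3′ end of nascent RNA and so counts engaged RNA polymerases rather than steady-state mRNA. The cells were diploid mouse embryonic stem (mES) cells of a line that was haploid at first, grown without feeders in serum and LIF. All libraries came from 1 line, AID-Zfp574, in which an auxin-inducible degron was fused to the N-terminus of the zinc finger protein ZFP574. The parental clonal line expressed the plant F-box protein OsTir1 with ARF16 from an EF1a promoter, and the tagged line was grown from individual clones. The control group (0 h, no auxin) and the depletion group (6 h in 500 µM of the auxin IAA) had 2 biological replicates each, and both carried the tag and OsTir1. No sample of cells without the tag but with auxin was analysed here, so loss of ZFP574 and an effect of auxin cannot be told apart.

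In the integrated stress response, kinases that sense amino acid shortage, unfolded protein in the endoplasmic reticulum, viral RNA or lack of haem phosphorylate the α subunit of the initiation factor eIF2. General protein synthesis falls, while the mRNA of the transcription factor ATF4 is translated more. ATF4 then binds composite C/EBP-ATF response elements and raises transcription of genes for amino acid synthesis, transport and tRNA charging, together with factors that limit the response. Much of the control of ATF4 itself is therefore translational, which a nascent transcription assay does not read, whereas its target genes are transcriptional outputs. The question asked of the data was whether transcription of these genes differed between ZFP574-depleted and control cells.

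The control libraries held 3298864 and 3616429 counts and the depletion libraries 6045216 and 5670904. Levels are given as CPM, the count in proportion to a library size corrected by TMM and levels between genes as CPM per kilobase of annotated gene span. Changes are log2 fold changes of depletion over control from edgeR's quasi-likelihood test, and a gene was called changed at a Benjamini-Hochberg adjusted p below 0.05 over the 11853 genes tested, with no fold threshold. The mES cell marker list (9 of 10 genes analysed here) summed to 4152 to 4205 CPM in control and 4200 to 4277 CPM in depletion libraries. Of 6 fibroblast markers only Thy1 was analysed here, at 0.504 to 2.18 CPM across the libraries. The 3 neural markers summed to 32.8 to 35.2 CPM in control and 39.5 to 40.0 CPM in depletion libraries. For 2 of 5 primitive endoderm markers the sums were 13.8 to 14.2 CPM and 12.1 CPM. Eomes, the only trophectoderm or mesoderm marker analysed here, was at 6.91 to 9.01 CPM and 7.73 to 9.61 CPM. None of these genes was called changed. The degron acts on protein, so Zfp574 transcription (29.8 ± 8.09 CPM in control and 35.9 ± 4.40 CPM in depletion, SD, n = 2; adjusted p = 0.406) does not check the loss of ZFP574.

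None of the 10 stress response genes passed the test for a change between conditions. No gene was called lower, against 1.40% of all tested genes, and no gene was called higher, against 1.11%. The log2 fold changes ran from -0.31 (Shmt2) to 0.28 (Ddit3), and the adjusted p-values from 0.282 to 0.979. DESeq2 with its own size factors also called 0 of the 10, and called 0.519% of genes lower and 0.119% higher, so it called few genes in all. At an unadjusted p below 0.05, edgeR placed 1 gene lower (Shmt2) and none higher, against 7.66% and 8.53% of tested genes, and DESeq2 placed 0 of the 10, against 1.87% of genes lower and 2.13% higher.

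The bounds on these changes were narrow, and rest on variances that edgeR moderated across all tested genes. For all 10 genes the 95% confidence interval lay within a 2-fold change in either direction, as it did for 93.0% of tested genes. It lay within a 1.5-fold change for 8 genes, all but Ddit3 and Shmt2, against 73.8% of tested genes. The highest upper bound was a 1.51-fold rise (Ddit3) and the lowest lower bound a fall to 0.653 of control (Shmt2). With DESeq2 and its own size factors the bounds for these genes were wider, at 1.72 and 0.583. All 10 intervals stayed within 2-fold under each of 15 other settings of the scaling, test, filter or libraries.

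**Figure D1:**
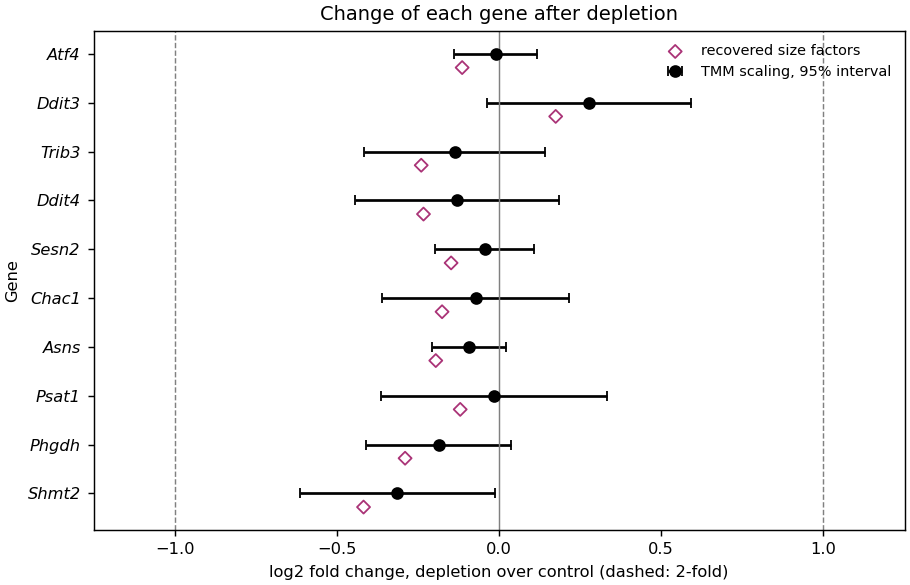
Log2 fold change of depletion over control for each of the 10 genes (x axis), with bars for the 95% confidence interval from edgeR's quasi-likelihood fit (2 libraries per group). All intervals lie between the lines for a 2-fold change, and the Shmt2 interval alone lies wholly below 0.

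Summed over the 10 genes, the level was 913 and 889 CPM in the control libraries and 881 and 838 CPM in the depletion libraries. The lower control library and the higher depletion library were thus separated by less than the replicates of either group. The fold change was below 0 for 9 of the 10 genes, against 50.6% of tested genes, and the median log2 fold change was -0.08, against -0.002 over all tested genes. On leaving out each library in turn, 6 to 8 of the 10 were below 0. With offsets for gene length and GC content 8 were, and the gap between the members' median and that of all genes shrank from -0.081 to -0.034 (medians of -0.065 and -0.031). In 5 genes (Shmt2, Ddit4, Trib3, Phgdh and Asns) the depletion values were each lower than either control value, which held for 22.9% of tested genes. Only Ddit3 lay above in both depletion libraries, against 23.4% of tested genes. The difference between group means was smaller than the larger gap between replicates for 7 of the 10 genes. The share of all tested genes for which this held was not computed. Of the 10 genes, 5 lay inside the quartiles of all tested genes, which were log2 fold changes of -0.13 and 0.11.

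**Figure D2:**
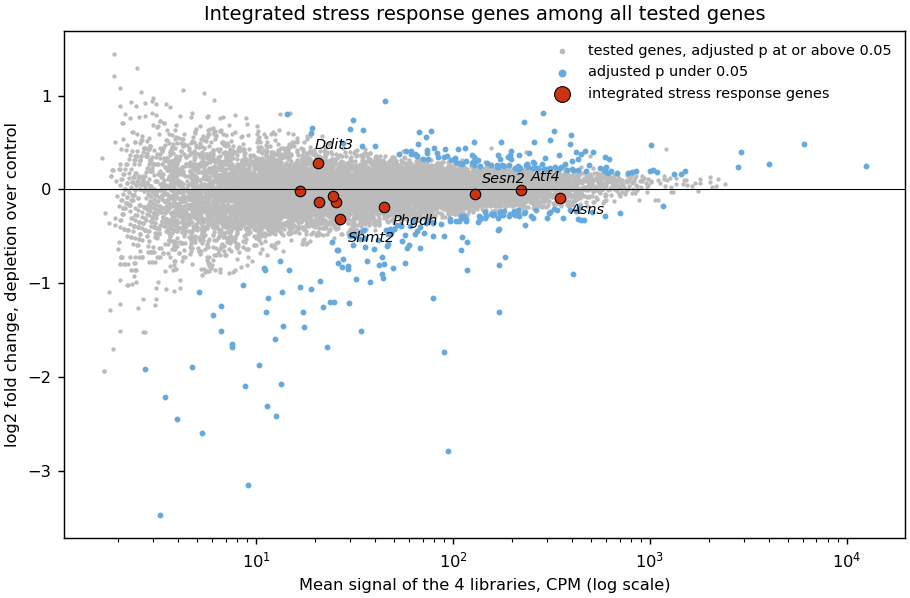
Log2 fold change of depletion over control against mean level (CPM, log axis) for all 11853 tested genes, with the 10 stress response genes marked. The marked genes lie between -0.31 and 0.28, and none is among the called genes.

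Both transcription factors of the set were transcribed in control cells. Atf4 (ENSMUSG00000042406, mm10 chr15:80255184-80257541, plus strand), the central transcription factor of the response, had 719 and 843 counts in control and 1372 and 1195 counts in depletion libraries. Its levels were 216 and 230 CPM in control and 230 and 213 CPM in depletion libraries. The groups overlapped, with a fold of 0.993 (95% interval 0.908 to 1.09; adjusted p = 0.964). Over its short gene span it had 94.3 CPM per kilobase, the highest of the 10 genes and at percentile 99.5 of tested genes. Ddit3 (ENSMUSG00000025408, chr10:127290774-127296288, plus strand) encodes CHOP, a C/EBP family factor known as a late and pro-apoptotic target of ATF4. It had 62 and 69 counts in control and 141 and 122 in depletion libraries, or 18.6 and 18.8 CPM against 23.7 and 21.7 CPM. Both depletion libraries were higher, by a fold of 1.21 (interval 0.975 to 1.51), and the difference did not pass the test (unadjusted p = 0.080, adjusted p = 0.387). The Ddit3 span overlaps at its 3′ end that of Mars1, the methionyl-tRNA synthetase gene on the opposite strand, whose log2 fold change was -0.24 (SE 0.106, adjusted p = 0.257). Counting used strand, so reads of the pair were kept apart. The span also overlaps Gm4189 on the opposite strand and a second annotated Ddit3 entry on the same strand, whose reads cannot be told apart from its own there.

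Trib3, Ddit4, Sesn2 and Chac1 encode regulators that act downstream of ATF4. Trib3 (ENSMUSG00000032715, chr2:152337422-152344032, minus strand) encodes a pseudokinase that restrains ATF4 and AKT. It was at 26.4 and 26.7 CPM in control and at 24.2 CPM in both depletion libraries, lower in both by a fold of 0.910 (interval 0.750 to 1.10; adjusted p = 0.684). Ddit4 (ENSMUSG00000020108, chr10:59949669-59951834, minus strand) encodes REDD1, an inhibitor of mTORC1. Its levels were 21.3 and 22.1 CPM in control and 21.2 and 18.5 CPM in depletion libraries. The depletion replicates differed from each other by more than the nearest libraries of the groups did, and the fold was 0.914 (interval 0.735 to 1.14; adjusted p = 0.742).

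Sesn2 (ENSMUSG00000028893, chr4:132492032-132510501, minus strand), a leucine-binding inhibitor of mTORC1, was at 136 and 127 CPM in control and at 135 and 119 CPM in depletion libraries. The groups overlapped, and the fold of 0.970 had an interval of 0.872 to 1.08 (adjusted p = 0.834). The Sesn2 span overlaps the annotated gene Gm12981 on the same strand, whose reads cannot be told apart from its own there. Chac1 (ENSMUSG00000027313, chr2:119351229-119354381, plus strand), a γ-glutamyl cyclotransferase that degrades glutathione, had 78 and 98 counts in control and 145 and 132 in depletion libraries. Its levels of 23.4 and 26.7 CPM in control and 24.4 and 23.5 CPM in depletion libraries overlapped (fold 0.951, interval 0.779 to 1.16; adjusted p = 0.861). The median log2 fold change of these 4 regulators was -0.10.

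The 4 genes of amino acid synthesis had the lowest median log2 fold change of the role groups, -0.14, and none passed the test. Asns (ENSMUSG00000029752, chr6:7675169-7693254, minus strand), asparagine synthetase, was the most highly counted of the 10 genes, with 1252 and 1265 counts in control and 2011 and 1900 in depletion libraries. It was at 376 and 345 CPM in control and at 338 CPM in both depletion libraries. The control replicates lay farther apart than the nearest libraries of the groups, and the fold of 0.938 had the narrowest interval of the 4, 0.866 to 1.01 (adjusted p = 0.435). An increase of Asns transcription of more than 1.01-fold thus lay outside its interval.

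Phgdh and Psat1 encode successive enzymes of serine synthesis from 3-phosphoglycerate, and Shmt2 the mitochondrial serine hydroxymethyltransferase that feeds the folate cycle. Phgdh (ENSMUSG00000053398, chr3:98313170-98339990, minus strand) was at 49.9 and 44.8 CPM in control and at 40.6 and 42.4 CPM in depletion libraries, lower in both by a fold of 0.879 (interval 0.753 to 1.03; adjusted p = 0.423). Psat1 (ENSMUSG00000024640, chr19:15904678-15947337, minus strand) was at 15.9 and 17.7 CPM in control and 16.0 and 17.4 CPM in depletion libraries. Its fold of 0.989 (interval 0.776 to 1.26; adjusted p = 0.979) rested on 53 to 98 counts per library. Its 0.393 CPM per kilobase was the lowest of the 10 genes, over a GENCODE span that begins 22278 bases before the RefSeq start site.

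Shmt2 (ENSMUSG00000025403, chr10:127517123-127522444, minus strand) had 97 and 111 counts in control and 163 and 114 in depletion libraries. Its levels were 29.2 and 30.3 CPM in control and 27.4 and 20.3 CPM in depletion libraries. Both depletion libraries were lower, but they differed from each other by 0.43 on the log2 scale, more than the fitted change of -0.31 (SE 0.147). The fold of 0.804 had an interval of 0.653 to 0.991 (unadjusted p = 0.041, adjusted p = 0.282). The change rested on depletion replicate 2: the log2 fold change was -0.12 without it and -0.55 without depletion replicate 1.

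**Figure D3:**
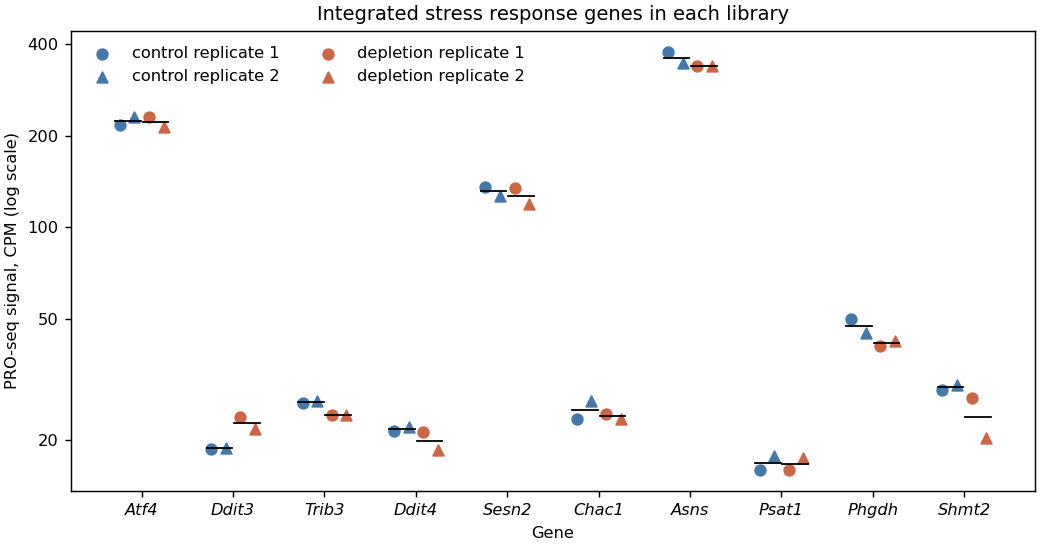
Level (CPM, log axis) of each of the 10 genes in each library, with 1 point per library, controls and depletion side by side, and a bar at each group mean (n = 2). Asns and Atf4 lie highest and Psat1 lowest, and the points of the groups overlap or lie close for each gene.

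Promoter sequences of 5 of the genes are shown. Asns, Chac1 and Trib3 hold a match to the letters of a C/EBP-ATF response element. Ddit3 and Shmt2, with no match in the window searched, had the highest and lowest change. Sequences are from RefSeq on GRCm38.p6, read 5′ to 3′ on the gene's strand, and all 10 genes matched a window of 250 bases before to 50 bases after the start. The element searched was the C/EBP-ATF response element (CARE) as TGATGNAA on both strands, printed in capitals. It was present in 3 of the 10 windows and in 3.97% of all 32851 windows. The Asns sequence (chr6:7693210-7693459, minus strand) holds it on the gene's strand from position -23, and the Chac1 sequence (chr2:119350992-119351241, plus strand) on the opposite strand from position -193. The 30 bases of Trib3 (chr2:152344028-152344057, minus strand) hold it on the opposite strand from position 15 after the start. Ddit3 is shown from chr10:127290543-127290792 (plus strand) and Shmt2 from chr10:127522445-127522694 (minus strand).
Asns: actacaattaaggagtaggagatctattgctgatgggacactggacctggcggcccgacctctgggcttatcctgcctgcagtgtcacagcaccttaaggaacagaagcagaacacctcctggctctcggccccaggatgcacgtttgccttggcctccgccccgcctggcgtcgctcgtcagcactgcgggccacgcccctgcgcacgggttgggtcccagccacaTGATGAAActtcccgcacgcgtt
Chac1: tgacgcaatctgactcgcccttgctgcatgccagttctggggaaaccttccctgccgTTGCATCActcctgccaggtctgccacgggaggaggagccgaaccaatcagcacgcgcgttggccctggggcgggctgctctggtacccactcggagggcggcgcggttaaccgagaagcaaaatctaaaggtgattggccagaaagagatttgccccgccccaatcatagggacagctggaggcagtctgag
Trib3: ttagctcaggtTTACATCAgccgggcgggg
Ddit3: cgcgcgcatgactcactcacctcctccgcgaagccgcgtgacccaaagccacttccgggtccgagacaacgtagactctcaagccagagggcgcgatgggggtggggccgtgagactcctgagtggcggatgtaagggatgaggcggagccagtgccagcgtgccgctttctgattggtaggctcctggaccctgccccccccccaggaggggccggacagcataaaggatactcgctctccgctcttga
Shmt2: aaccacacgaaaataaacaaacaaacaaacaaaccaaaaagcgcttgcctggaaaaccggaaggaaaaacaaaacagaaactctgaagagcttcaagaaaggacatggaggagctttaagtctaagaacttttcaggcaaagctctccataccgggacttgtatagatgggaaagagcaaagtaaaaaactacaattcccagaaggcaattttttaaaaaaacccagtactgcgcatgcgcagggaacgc

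The 3 genes with a CARE match had log2 fold changes of -0.09 (Asns), -0.07 (Chac1) and -0.14 (Trib3). The 7 genes with no match in the window searched included both extremes of the set, 0.28 (Ddit3) and -0.31 (Shmt2). The 3 values thus had to lie within that range, and a difference by CARE match was not tested. Bases outside the window were not searched, so these 7 genes may hold the element elsewhere. Other promoter letters were common to many genes: CCAAT was present in 7 of the 10 windows and 37.4% of all windows, and GGGCGG in 5 and 35.7%. TATAAA was present in 2 (Trib3 and Phgdh) and 13.6%. A match describes the letters of the window and does not show binding. The genes were short, with a median span of 6.06 kb against 22.2 kb over all tested genes, and their median GC content was 51.0% against 46.4%.

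The wider pathway, 140 further genes in lists by role, held 132 tested genes, of which 3 were called lower and 1 higher, against 1.40% and 1.11% of all tested genes. The log2 fold change was below 0 for 78 of the 132, against 50.6% of all tested genes, and the median was -0.02. Scaled instead by size factors recovered from the deposited table, which shift all genes downward, 16 were called lower, against 5.89% of all tested genes, and 1 higher. None of the 8 genes of eIF2 kinases and their regulators passed the test. Among them Eif2ak3, which encodes the endoplasmic reticulum stress kinase PERK, was at 13.8 and 11.7 CPM in control and 15.8 and 19.8 CPM in depletion libraries, with a log2 fold change of 0.48 (SE 0.187, adjusted p = 0.193). Both depletion libraries were higher, and the gap between them was wider than that between the nearest libraries of the groups.

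None of 17 further enzymes of serine, folate-linked, proline and cysteine metabolism passed the test (median log2 fold change -0.03). The smallest p among them was that of Gclm, the modifier subunit of the enzyme that starts glutathione synthesis, at 111 and 99.1 CPM in control and 131 and 116 CPM in depletion libraries (log2 fold change 0.24, adjusted p = 0.112). None of 13 tRNA-charging genes passed (median -0.05), with Mars1 the nearest to the threshold. None of 13 other stress outputs passed (median -0.02), where Stc2, which encodes the secreted glycoprotein stanniocalcin 2, was nearest at 131 and 128 CPM in control and 115 and 111 CPM in depletion libraries (log2 fold change -0.20, adjusted p = 0.143). None of 14 tested regulators of mTORC1, on which REDD1 and sestrin 2 act, passed (median 0.01), and Depdc5, a subunit of the GATOR1 complex, was nearest (log2 fold change -0.26, adjusted p = 0.418). With the recovered factors Aldh18a1, Got1, Mthfd1 and Mthfd2 of the enzymes, Mars1, and Stc2 and Cdkn1a of the stress outputs were called lower, and Mars1 was also called without control replicate 2.

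The largest change of the 4 called pathway genes was in Eif2s1 (chr12:78861819-78887010, plus strand), which encodes the α subunit of eIF2 that the kinases phosphorylate. Eif2s1 fell from 29.5 and 33.3 CPM in control to 20.3 and 19.9 CPM in depletion libraries, a fold of 0.640 (interval 0.526 to 0.779; adjusted p = 0.00695). In the main fit it was the only gene called among 15 genes of eIF2, eIF2B and the eIF2α phosphatases, whose median log2 fold change was -0.05. With the recovered factors Ppp1cc of this list was also called lower, and with the replicate block Ppp1cb was called higher. Slc1a5 (chr7:16781340-16798274, plus strand), a transporter of glutamine and other neutral amino acids, fell from 164 and 158 CPM to 138 and 123 CPM (fold 0.811, interval 0.735 to 0.896; adjusted p = 0.0136). It was the only called gene of 10 tested transporters, of which 8 had a log2 fold change below 0 (median -0.08), against 50.6% of all tested genes. With the recovered factors 4 transporters were called lower, Slc1a5, Slc38a7, Slc7a1 and Slc7a5, against 5.89% of all tested genes.

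Calr (chr8:84841850-84846934, minus strand), the endoplasmic reticulum chaperone calreticulin, fell from 82.3 and 96.3 CPM to 70.9 and 68.5 CPM (fold 0.778, interval 0.686 to 0.883; adjusted p = 0.0230). In the main fit it was the only called gene of 23 in the IRE1 and ATF6 arms of the unfolded protein response. Of these, 18 lay below 0, against 50.6% of all tested genes, and the median was -0.03. Creld2 had a larger fall that did not pass the test (log2 fold change -0.43, adjusted p = 0.0687). It was called lower with the likelihood ratio test, the replicate block and the recovered factors. With the replicate block Atf6 was called higher. Jun (chr4:95049034-95052222, minus strand), an AP-1 subunit, rose from 70.6 and 83.5 CPM to 112 and 96.5 CPM (fold 1.35, interval 1.19 to 1.54; adjusted p = 0.00558). In the main fit it was the only called gene of 13 tested bZIP partners and stress-induced factors. With the recovered factors Nfe2l2 of this list was called lower. Each of the 4 calls lost its threshold when at least 1 library was left out, and none was made by DESeq2 with its own size factors (adjusted p from 0.228 to 0.711). The DESeq2 log2 fold changes were -0.64 for Eif2s1, -0.30 for Slc1a5, -0.36 for Calr and 0.44 for Jun, the same to 2 decimals as in edgeR. Without depletion replicate 2 the adjusted p was 0.0930 for Eif2s1, 0.320 for Slc1a5 and 0.224 for Calr. Without depletion replicate 1 it was 0.0924 for Eif2s1, 0.138 for Calr and 0.214 for Jun. Without control replicate 2 it was 0.0612 for Eif2s1 and 0.260 for Calr, and without control replicate 1 it was 0.0577 for Jun. Calr also lost its call with offsets for gene length and GC content (adjusted p = 0.0624), where its log2 fold change was -0.32 against -0.36.

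**Figure D4:**
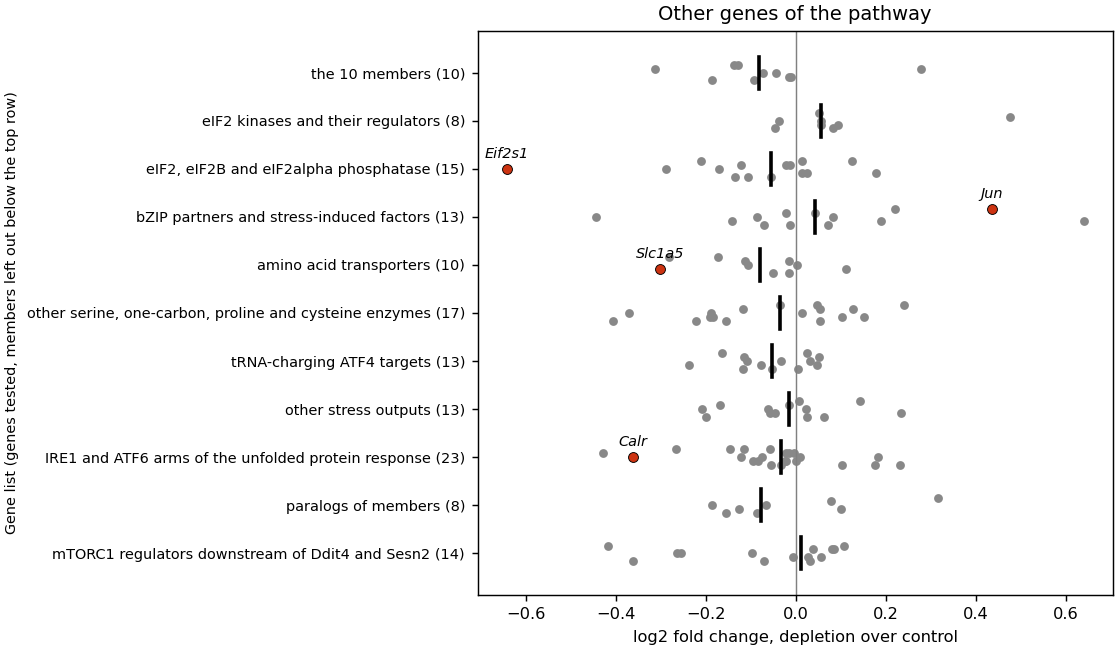
Log2 fold change of depletion over control (x axis) for each tested gene of the 10 stress response genes (top row) and of the pathway lists (other rows), with a bar at each median and called genes in red. Medians lie between -0.08 and 0.06, and Eif2s1, Slc1a5, Calr and Jun are the called genes.

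Paralogs of the 10 genes were described beside them, since family members can share a response. None of 8 passed the test, and 5 had a log2 fold change below 0 (median -0.08). Sesn3, which like Sesn2 encodes a sestrin, had the highest value. It was at 41.8 and 43.7 CPM in control and at 55.9 and 50.4 CPM in depletion libraries, with a log2 fold change of 0.32 (SE 0.107, adjusted p = 0.121), against -0.04 for Sesn2 and 0.08 for Sesn1 (adjusted p = 0.843). The difference between the sestrins was not tested. Shmt1, the cytosolic counterpart of Shmt2, had a log2 fold change of -0.15 (adjusted p = 0.530) and Chac2 one of -0.13 (adjusted p = 0.849). Trib1 and Trib2 lay on opposite sides of 0, at 0.10 (adjusted p = 0.775) and -0.19 (adjusted p = 0.664). Ddit4l was at -0.07 (adjusted p = 0.887) and Atf5, a factor related to ATF4, at -0.09 (adjusted p = 0.893).

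Scaling moved all genes together. With the recovered factors the median of all tested genes shifted to -0.11, and 698 genes were called lower and 49 higher (5.89% and 0.413%). The 10 genes moved with it, to a median of -0.19 with no change of sign, and none was called, although the adjusted p fell to 0.0586 for Asns and 0.0688 for Shmt2. Relative to all genes their median was -0.08 under both scalings. Ddit3 was above 0 under both, at 0.28 with TMM and 0.17 with the recovered factors.

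**Figure D5:**
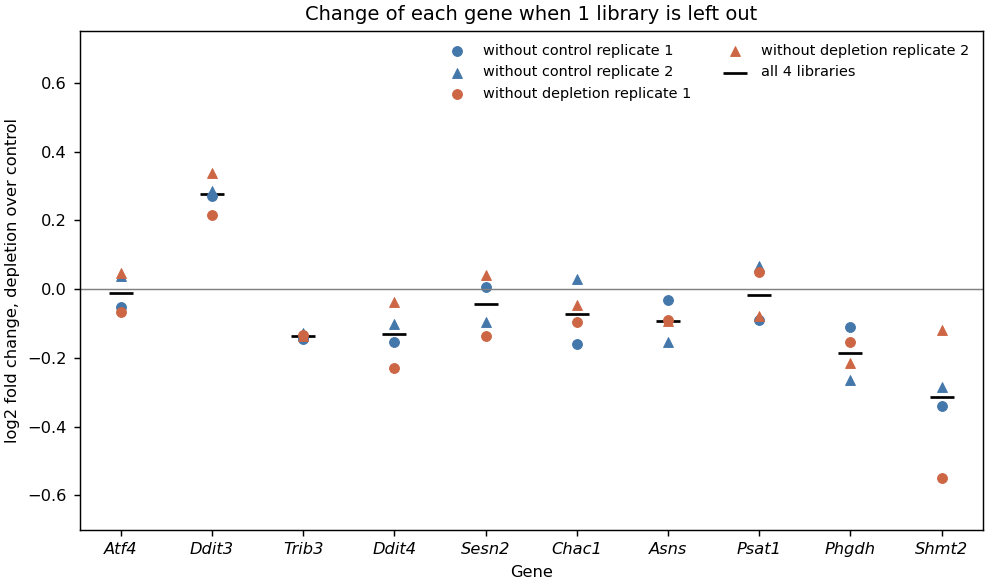
Log2 fold change of depletion over control for each of the 10 genes in the full fit and with each of the 4 libraries left out in turn. Ddit3 stays above 0 and Trib3, Ddit4, Asns, Phgdh and Shmt2 stay below 0 in each fit, while Atf4, Sesn2, Chac1 and Psat1 take both signs.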

How the data were processed

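PRO-seq libraries of 2 control and 2 depletion samples were used. Per the labels and the methods, the authors set aside a molecular identifier, trimmed reads with cutadapt 1.18, aligned them to mm10 with Bowtie 1.2.2 (single best position), collapsed duplicates by identifier, took the 3′ end of nascent RNA and, by strand, deposited a count for each gene of a CAGE-corrected Ensembl gene set. The deposited mean normalized signal per gene gave the size factors behind that table by regression on the 4 count columns (0.699 and 0.740 for control, 1.32 and 1.24 for depletion). The methods describe scaling to spiked-in Drosophila cells with 1 factor per condition, while these differ within a condition, and how they were derived is not settled here. The authors' fold changes and p-values were not used.

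Counts were fitted with edgeR 4.0.16 in R 4.3.3 (quasi-likelihood, TMM, condition only). filterByExpr (minimum count 10, minimum total 15) kept 11853 of 12486 genes, and p-values were Benjamini-Hochberg adjusted over these. The fit was tested on simulated data. Intervals use a variance moderated across all tested genes (median 27.0 degrees of freedom), with 2 biological replicates per group. All replicates were of 1 line, so the intervals do not cover differences between clones. Gene spans came from GENCODE M21 (12474 of 12486 identifiers matched). Named genes were the 10 members, all called genes of the pathway lists, the gene with the smallest p in lists without a call, paralogs of members and Zfp574. The members and lists were chosen with earlier results of these data known. Alternatives covered size factors (DESeq2 1.42.0 median ratios, library totals, recovered factors), tests (DESeq2, likelihood ratio, limma-voom 3.58.1), filters, length and GC offsets, a replicate block and leaving out each library.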

Additional observations from a re-analysis of the deposited data

How the results depend on the processing

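No member was called under any of 15 alternatives, and of the single-member log2 fold changes under them 142 kept their sign and side of the threshold and 8 reversed. The reversals were Atf4 with length and GC offsets (0.011) and, on leaving out libraries, values near 0: ranges were -0.067 to 0.047 for Atf4, -0.14 to 0.042 for Sesn2, -0.16 to 0.030 for Chac1 and -0.089 to 0.067 for Psat1. The members' median moved to -0.185 with the recovered size factors and to -0.167 with these factors and length and GC offsets together, an alternative chosen after seeing the data. Pathway genes called lower numbered 16 and 20 under these settings, 0 with DESeq2 and its own factors, and 0 to 4 on leaving out libraries. Those called higher numbered 0 with DESeq2, 0 to 2 on leaving out libraries and 4 with the replicate block. With the replicate block no member was called (adjusted p = 0.180 for Shmt2), and calls over all genes rose from 166 lower and 132 higher to 300 and 366. Over all tested genes, deviations of same-numbered replicates were nearly uncorrelated (correlation 0.03). Counting noise can hide a shared deviation, so whether the numbers pair samples was not settled, and the main fit used condition only. Depth limited the members unequally: the standard error of the log2 fold change was largest for Psat1, at 0.170 with 53 to 98 counts per library, and smallest for Asns, at 0.056 with 1252 to 2011.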

Other observations

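Eif2s1 has a head-to-head neighbour, Atp6v1d, which encodes a subunit of the vacuolar proton pump, with start sites 181 bases apart. The pair was looked at after its values were seen. Atp6v1d had 35 and 34 counts in control and 81 and 53 in depletion libraries, or 9.90 ± 0.876 CPM against 11.5 ± 2.95 CPM (SD, n = 2). Its log2 fold change was 0.23 (SE 0.223, adjusted p = 0.674), against -0.64 for Eif2s1 (adjusted p = 0.00695). Without depletion replicate 1 the Atp6v1d value was -0.06. The difference between the neighbours was not tested. Calr has such a neighbour at 254 bases, 1700122E12Rik, with a log2 fold change of -0.09 (adjusted p = 0.876). By GENCODE spans, none of the 10 stress response genes has a head-to-head neighbour within 1000 bases among the tested genes. Genes that were not tested, and pairs whose 5′ ends overlap, were not searched.

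Among mES cell markers, Utf1, a chromatin-associated factor of pluripotent cells, fell, with 129 and 172 counts in control and 172 and 154 in depletion libraries (log2 fold change -0.61, adjusted p = 0.00358). It was the only one of the 9 markers analysed here that was called, against 1.40% of all tested genes called lower. Its values under the other settings are not given here.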
